A study of Mus musculus with 7 samples.

Results

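The 10 genes described here are the immediate early genes Fos, Fosb, Jun, Junb, Jund, Egr1, Atf3, Ier2, Zfp36 and Dusp1. They were chosen by name, as a class known to react to tissue handling, and all 10 were found by symbol among the 46671 genes of the deposited table. RNA had been sequenced from intestinal epithelium of BALB/C mice aged 8 weeks in 4 libraries labelled MST3 knockout (cKO) and 3 labelled wild type (Ctrl). In cKO mice the kinase gene Stk24, which encodes MST3, was deleted in intestinal epithelial cells; the driver of the deletion is not given in the sources used here, and the control mice are described only as wild-type littermates. The treatment label states that no drug was given to either group, whereas the design text names AOM and DSS, a carcinogen and a colitis-inducing agent, and the 2 statements conflict.

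Immediate early genes are transcribed within minutes of a stimulus, without new protein synthesis, from promoters whose bound factors (SRF with its ternary complex partners, and CREB) are phosphorylated by MAP kinase cascades. Fos and Jun proteins pair through leucine zippers into AP-1, which binds TGANTCA and switches on later genes. Many of the transcripts carry AU-rich elements and decay quickly, and some members, such as the mRNA decay factor Zfp36 and the MAP kinase phosphatase Dusp1, end the response. The same genes are induced when tissue is warmed, cut or dissociated, and several of them are also transcribed in differentiated gut epithelium at rest.

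Promoter stretches are shown because the genes that moved together from library to library (described below) could be compared for the binding letters of CREB and SRF. RefSeq windows from 250 bases before to 50 bases after the start were matched by symbol for 8 of the 10 genes; Ier2 and Egr1 are not shown. Capitals mark TGACG, the core of the cAMP response element, on either strand, its full form TGACGTCA, or the CArG box bound by SRF. Positions are counted from the start, with -1 for the base before it, and all stretches are written on the strand of the gene (build GRCm38.p6).
Fos, from -144 to -47 in the window chr12:85473640-85473939, plus strand: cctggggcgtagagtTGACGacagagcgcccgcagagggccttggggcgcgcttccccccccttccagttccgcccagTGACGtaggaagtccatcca
Fosb, from -75 to -41 in the window chr7:19309996-19310295, minus strand: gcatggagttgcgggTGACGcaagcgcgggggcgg
Atf3, from -22 to 13 in the window chr1:191183284-191183583, minus strand: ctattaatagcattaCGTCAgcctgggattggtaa
Dusp1, from -206 to -121 in the window chr17:26508423-26508722, minus strand: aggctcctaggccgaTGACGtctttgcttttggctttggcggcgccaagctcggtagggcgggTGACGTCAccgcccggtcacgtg
Junb, from -121 to -87 in the window chr8:84978699-84978998, minus strand: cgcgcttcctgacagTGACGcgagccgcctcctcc
Zfp36, from -73 to -34 in the window chr7:28379179-28379478, minus strand: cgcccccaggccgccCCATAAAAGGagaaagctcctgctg

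TGACG was present in 5 of the 8 windows (Fos, Fosb, Atf3, Dusp1 and Junb), and in 20.8% of all 32851 RefSeq promoter windows of the same length. The full TGACGTCA, which contains TGACG, was found in Dusp1 alone among the 8 and in 1.79% of all windows. The CArG box was found in Zfp36 alone, and in 1.63% of all windows. The AP-1 letters TGANTCA were in none of the 8 windows, against 7.81% of all windows, and TATAAA was in those of Fos and Junb, against 13.6%. The windows of Jun and Jund held none of the 5 motifs, which were searched on both strands. A match describes letters only, and no match speaks only of this window.

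Reads assigned to genes totalled 14659708 to 19659622 a library, and no pair of libraries agreed within sampling noise. The targeted gene Stk24 stood between 2.92 and 3.85 FPKM (a level scaled by gene length and library size) in cKO and between 19.4 and 21.0 FPKM in Ctrl, a log2 difference of -2.42 (SE 0.12, limma adjusted p = 0.000427). The samples are labelled as colorectum, but the colon-defining genes Car1 and Hoxb13 were near 0 (0 to 0.0705 FPKM and 0 to 0.304 FPKM), while the small intestine genes Fabp2 and Apoa4 lay between 4366 and 9405 FPKM and between 4553 and 10415 FPKM. All 9 colon markers together, 6 of which were tested, summed to between 129 and 197 FPKM in cKO and between 127 and 159 FPKM in Ctrl. Of the stromal and muscle markers, 10 of 12 lay below the level required for testing, as did all 7 endothelial and all 8 nerve and glia markers. Summed T cell and innate lymphoid markers, 9 of 11 of which were tested, lay between 282 and 692 FPKM in cKO and between 440.1 and 1093 FPKM in Ctrl; in bulk tissue, fewer cells of a type and less RNA per cell cannot be told apart.

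Several of the 10 genes varied widely between libraries of the same genotype. Fos, Fosb, Jun, Atf3 and Dusp1 were low in cKO replicates 1 and 2 and in Ctrl replicate 1, and high in cKO replicate 4 and Ctrl replicate 3. Junb, Jund, Ier2 and Egr1 did not follow this order. None of the 10 genes was called different between cKO and Ctrl after adjustment over all genes tested: 0 of 10 passed an adjusted p of 0.05 in limma, where 4 of 13057 genes tested, or 0.0306%, did. At an unadjusted p under 0.05 there was 1 of 10, Junb, where 8.97% of all genes tested lay under it. The FPKM ranges of cKO and Ctrl were separate for 0 of 10 genes, where they were for 10.1% of all genes tested.

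**Figure D1:**
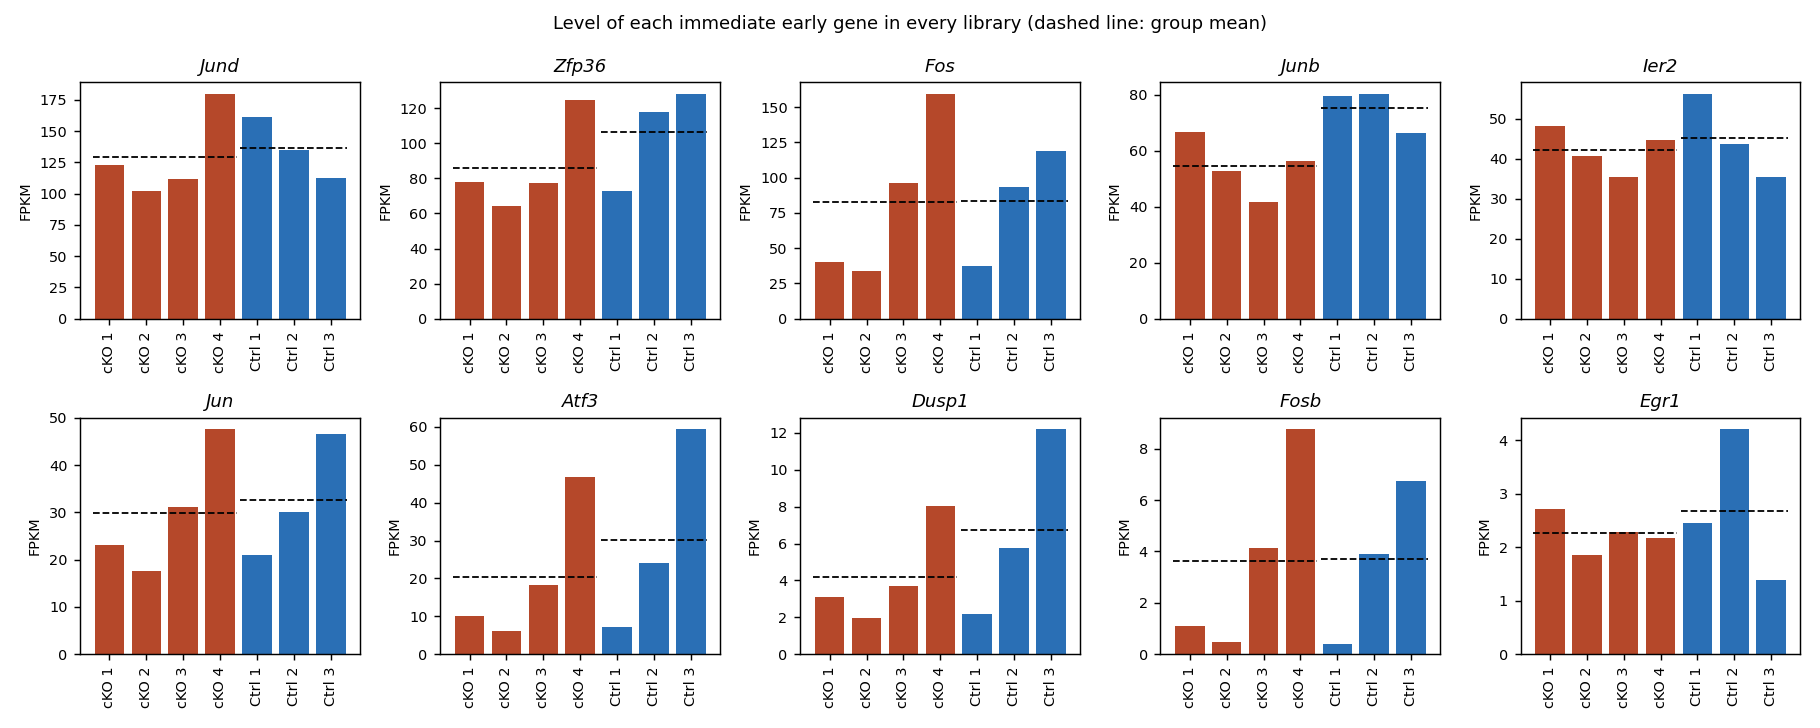
Level of each of the 10 genes (FPKM, vertical axis from 0) in the 4 cKO libraries (red, left) and the 3 Ctrl libraries (blue, right), with a dashed line at each group mean. Fos, Fosb, Jun, Atf3 and Dusp1 had their 3 lowest bars in cKO 1, cKO 2 and Ctrl 1, so that each genotype held both low and high libraries.

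By mean FPKM over the 7 libraries the order was Jund (132), Zfp36 (94.7), Fos (82.7), Junb (63.3), Ier2 (43.5), Jun (31.0), Atf3 (24.6), Dusp1 (5.28), Fosb (3.65) and Egr1 (2.44). For every pair of neighbours in this order the ranges over the libraries overlapped. Within libraries, 2 of the 9 neighbouring pairs kept their order in 7 of 7: Junb was above Ier2, and Atf3 was above Dusp1. Fosb was above Egr1 in 3 of 7 libraries only. All 10 genes passed the filter on low values, a mean of at least 0.5 FPKM over all libraries.

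Fos, the prototype of the class and a partner of all 3 Jun proteins, is encoded on the plus strand of chromosome 12 (85520664 to 85524048; gene positions are GRCm39, as in the deposited table). It stood at 40.2, 33.9, 96.1 and 159.5 FPKM in cKO replicates 1 to 4, against 37.2, 93.3 and 119 FPKM in Ctrl replicates 1 to 3. The groups covered the same range, and the highest library exceeded the lowest 4.71-fold within cKO and 3.19-fold within Ctrl. The means were 82.4 ± 58.5 FPKM in cKO (SD, n = 4) and 83.1 ± 41.8 FPKM in Ctrl (SD, n = 3). The log2 difference was -0.14 with a 95% interval from -1.52 to 1.24 (limma adjusted p = 0.961), an interval that includes 2-fold changes in either direction. Each value rests on 1205 to 4682 reads.

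Fosb, the closest relative of Fos and another Jun partner, is encoded on the minus strand of chromosome 7 (19036621 to 19043970). It stood at 1.09, 0.456, 4.14 and 8.77 FPKM in cKO replicates 1 to 4 and at 0.409, 3.91 and 6.74 FPKM in Ctrl replicates 1 to 3. It had the widest spread of the 10, with the highest library 19.3-fold above the lowest in cKO and 16.5-fold in Ctrl. Counting error was small beside this: the lowest cKO library held 29 reads (95% Poisson interval 19.4 to 41.6) and the highest 461 (420 to 505), an interval that covers counting error only. The log2 difference between genotypes was -0.11 (95% interval -2.23 to 2.0), and it turned to 0.013 in voom on recovered reads.

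Jun, the AP-1 subunit activated by JNK, is encoded on the minus strand of chromosome 4 (94937273 to 94940459). It stood at 23.2, 17.5, 31.2 and 47.7 FPKM in cKO replicates 1 to 4 and at 21.0, 30.1 and 46.6 FPKM in Ctrl replicates 1 to 3. The order of the 7 libraries was the same as for Fos, over a narrower range. Its means were 29.9 ± 13.1 FPKM in cKO (SD, n = 4) and 32.6 ± 12.97 FPKM in Ctrl (SD, n = 3), a log2 difference of -0.15 (95% interval -0.99 to 0.70).

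Junb, a Jun protein that in many settings restrains Jun, is encoded on the minus strand of chromosome 8 (85703538 to 85705377) and was the member with the smallest p. It stood at 66.8, 52.6, 41.5 and 56.5 FPKM in cKO replicates 1 to 4, against 79.4, 80.4 and 66.1 FPKM in Ctrl replicates 1 to 3. The groups overlapped only through cKO replicate 1, which lay just above Ctrl replicate 3. The means were 54.3 ± 10.4 FPKM in cKO (SD, n = 4) and 75.3 ± 7.95 FPKM in Ctrl (SD, n = 3), and the log2 difference of -0.48 (95% interval -0.88 to -0.088) had an unadjusted p of 0.0225 and an adjusted p of 0.516 in limma. The exact 2-sided permutation test gave p = 0.114, where the smallest p that 4 against 3 libraries allow is 0.0571. The unadjusted limma p was 0.0518 after rescaling to a common sum, 0.0694 without Ctrl replicate 1 and 0.0741 without Ctrl replicate 2. In the other alternatives it lay between 0.0078 (without cKO replicate 1) and 0.0472 (quantile normalization). The adjusted limma p was never lower than 0.323, its value with array weights.

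Jund, the Jun protein that is least dependent on stimuli, is encoded on the plus strand of chromosome 8 (71150389 to 71153265) and was the most abundant member. It stood at 123, 102, 112 and 180.0 FPKM in cKO replicates 1 to 4 and at 161, 135 and 112 FPKM in Ctrl replicates 1 to 3. Here Ctrl replicate 1, low for Fos, was the highest of its group. The log2 difference of -0.095 (95% interval -0.60 to 0.41) turned to 0.031 after quantile normalization.

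Egr1, a zinc finger transcription factor induced through SRF, is encoded on the plus strand of chromosome 18 (34994260 to 34998009) and was the least abundant member. It stood at 2.71, 1.85, 2.29 and 2.18 FPKM in cKO replicates 1 to 4 and at 2.45, 4.21 and 1.39 FPKM in Ctrl replicates 1 to 3, on 69 to 217 reads a library. Its lowest library was Ctrl replicate 3 and its highest Ctrl replicate 2, both of which were high for Fos. The log2 difference was -0.12 (95% interval -0.78 to 0.54).

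Atf3, a stress-induced repressor of the ATF/CREB family that also pairs with Jun proteins, is encoded on the minus strand of chromosome 1 (190902493 to 190915530). It stood at 9.99, 6.15, 18.4 and 46.9 FPKM in cKO replicates 1 to 4 and at 7.06, 24.2 and 59.5 FPKM in Ctrl replicates 1 to 3. The highest library exceeded the lowest 7.63-fold in cKO and 8.42-fold in Ctrl, and the groups overlapped over most of that range. The means were 20.4 ± 18.4 FPKM in cKO (SD, n = 4) and 30.2 ± 26.7 FPKM in Ctrl (SD, n = 3). The log2 difference of -0.50 (95% interval -2.37 to 1.37) was 0.21 without Ctrl replicate 3 and -1.28 without Ctrl replicate 1.

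Ier2, a short-lived nuclear protein induced by growth factors, is encoded on the minus strand of chromosome 8 (85387960 to 85389481). It stood at 48.3, 40.6, 35.5 and 44.6 FPKM in cKO replicates 1 to 4 and at 56.2, 43.7 and 35.4 FPKM in Ctrl replicates 1 to 3. Its levels were among the most even of the 10, and its 2 lowest libraries, Ctrl replicate 3 and cKO replicate 3, were among the 4 highest for Fos. The log2 difference of -0.077 (95% interval -0.49 to 0.33) turned to 0.011 after rescaling to a common sum and to 0.016 after quantile normalization.

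Zfp36, which encodes tristetraprolin and drives the decay of AU-rich mRNAs, is encoded on the minus strand of chromosome 7 (28076209 to 28078653). It stood at 77.7, 64.3, 77.2 and 125 FPKM in cKO replicates 1 to 4 and at 73.0, 118 and 128 FPKM in Ctrl replicates 1 to 3. Ctrl replicates 2 and 3 and cKO replicate 4 were the high libraries. The log2 difference of -0.31 (95% interval -0.93 to 0.31) was -0.56 without Ctrl replicate 1, -0.50 without cKO replicate 4, -0.18 without cKO replicate 2 and -0.15 without Ctrl replicate 3. Zfp36 overlaps Paf1 on the opposite strand, which stood between 7.44 and 10.04 FPKM in cKO and between 10.8 and 11.01 FPKM in Ctrl, and whether the counting used strand is not given in the sources used here.

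Dusp1, the phosphatase that switches off p38, JNK and ERK kinases, is encoded on the minus strand of chromosome 17 (26724565 to 26727446). It stood at 3.10, 1.95, 3.69 and 8.03 FPKM in cKO replicates 1 to 4 and at 2.202, 5.76 and 12.2 FPKM in Ctrl replicates 1 to 3, on 64 to 384 reads. The order of the libraries was the same as for Atf3. The means were 4.19 ± 2.66 FPKM in cKO (SD, n = 4) and 6.73 ± 5.08 FPKM in Ctrl (SD, n = 3), a log2 difference of -0.51 (95% interval -1.80 to 0.78) that was 0.035 without Ctrl replicate 3.

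**Figure D2:**
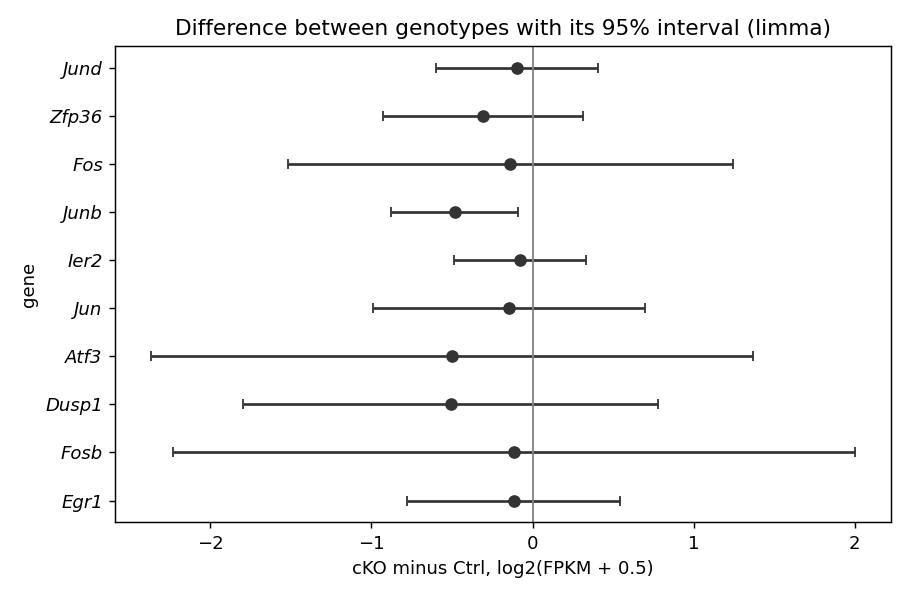
Difference of cKO minus Ctrl on the scale log2(FPKM + 0.5) for each gene (points) with its 95% interval from limma (bars), genes ordered by mean level. All 10 points lie below 0, the intervals of all but Junb include 0, and those of Fosb and Atf3 are the widest.

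Taken as a list, the 10 genes had a median log2 difference of -0.14, beside -0.0077 over all genes tested, and 10 of 10 lay below 0, beside 51.3% of all genes tested. The count below 0 was 9 after rescaling to a common sum (without Ier2) and in voom (without Fosb), and 8 after quantile normalization. It also hung on single libraries, at 5 of 10 without Ctrl replicate 3, 6 without cKO replicate 2 and 7 without Ctrl replicate 2. The genes share their libraries and several share their order of libraries, so that the count is not one of 10 separate measurements. Adjusted p over the 10 genes lay between 0.516 and 0.980 in limma.

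The spread within genotypes set the members apart from each other. The residual SD within groups on the scale log2(FPKM + 0.5) was 1.51 for Fosb, 1.34 for Atf3, 0.98 for Fos, 0.92 for Dusp1 and 0.59 for Jun, beside a median of 0.23 over all genes tested. These 5 genes lay at percentiles 99.4, 98.9, 97.0, 96.3 and 91.0 of all genes tested, in the same order. Egr1 (0.44), Zfp36 (0.42) and Jund (0.32) came next, at percentiles 84.1, 82.6 and 70.9. Ier2 (0.26) and Junb (0.24) were close to the median gene, at percentiles 56.9 and 52.7. Among the 500 genes on either side by mean level, Fosb and Atf3 were both at percentile 99.2, Fos at 99.1, Dusp1 at 97.9 and Jun at 95.3.

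**Figure D3:**
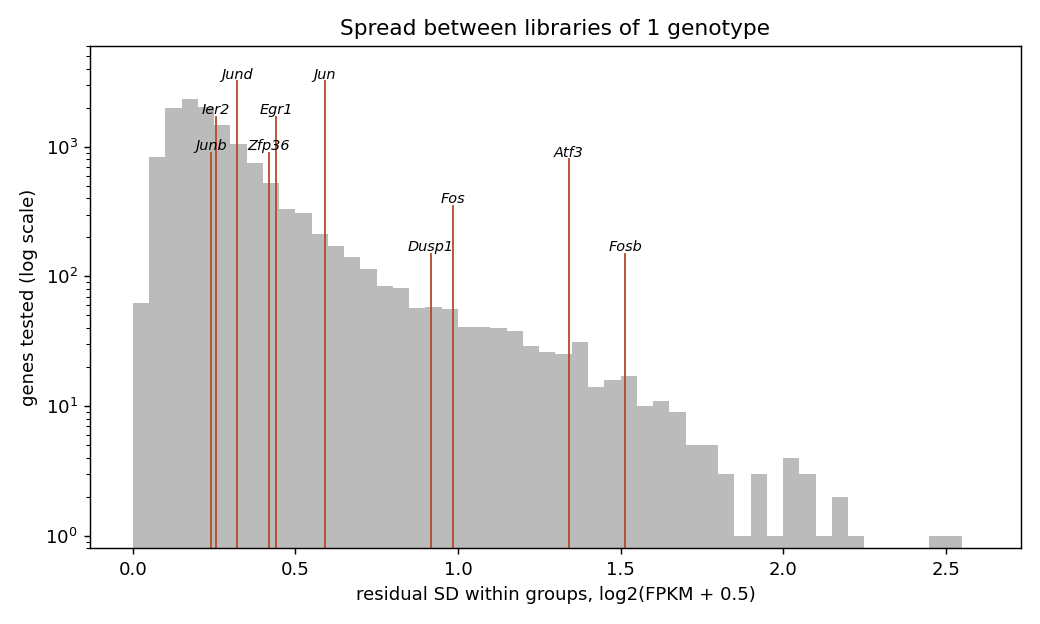
Number of genes tested (log scale) by their residual SD within genotypes on log2(FPKM + 0.5), in bins of 0.05, with the 10 genes marked by red lines whose heights carry no value. Fosb, Atf3, Fos, Dusp1 and Jun lie in the right tail and Junb and Ier2 near the bulk of all genes.

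The members' patterns over the libraries were compared by the root mean square difference of their centred log2 values, where rank 1 is the gene most like Fos among 13056 others. Jun ranked 28, Dusp1 36, Atf3 55, Fosb 64 and Zfp36 143. Jund ranked 3670, Egr1 9394, Junb 9539 and Ier2 10063. The difference from Fos was 0.38 log2 units for Jun, beside a median of 0.87 over all genes. The measure takes in the size of the swings as well as the order of the libraries, so a gene with small swings cannot come close to Fos whatever its order. Against the mean of the other 9 members, the ranks of 13048 genes were 3 for Jun, 8 for Zfp36, 2836 for Dusp1, 3233 for Jund and 3455 for Fos. They were 7919 for Junb, 9350 for Ier2, 10111 for Egr1, 12259 for Atf3 and 12581 for Fosb, so that both the flattest and the widest-swinging members lay far from that mean. Fos, Jun, Dusp1, Atf3, Fosb and Zfp36 were each below their own mean in cKO replicates 1 and 2 and in Ctrl replicate 1, which Jund, Egr1, Junb and Ier2 were not in all 3. TGACG was in the promoter windows of Fos, Dusp1, Atf3 and Fosb but not in those of Jun and Zfp36, and it was also in that of Junb. Whether the motif goes with the pattern was not tested.

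Several measures of the libraries were set beside this order. The share of reads from the mitochondrial genome was 3.71%, 5.24%, 7.39% and 7.51% in cKO replicates 1 to 4 and 3.88%, 5.32% and 4.19% in Ctrl replicates 1 to 3, low in cKO replicate 1 and Ctrl replicate 1 like Fos. Ctrl replicate 3, the second highest for Fos, also had a low share. The T cell and innate lymphoid sum was 282, 335, 557 and 692 FPKM in cKO replicates 1 to 4 and 1093, 440.1 and 494 FPKM in Ctrl replicates 1 to 3. Within cKO this sum was low in replicates 1 and 2 and highest in replicate 4, as Fos was. Within Ctrl, replicate 1 was lowest for Fos and highest for these markers. Myeloid markers summed to between 12.01 and 22.4 FPKM in cKO and between 13.1 and 23.5 FPKM in Ctrl, and stromal markers to between 6.79 and 20.5 FPKM in cKO and between 6.53 and 18.1 FPKM in Ctrl. Small intestine markers summed to between 28845 and 40369 FPKM in cKO and between 40785 and 55669 FPKM in Ctrl, with no overlap. Singly, 3 of the 11 genes had separate ranges, beside 10.1% of all genes tested. These 3 were Apoa4, Fabp1 and Gata4, whereas the ranges of the others, the abundant Apoa1 and Fabp2 among them, overlapped. Of the 11, the Paneth cell defensin gene Defa24, whose ranges overlapped, stood at 9268, 8484, 2125 and 2033 FPKM in cKO replicates 1 to 4 and at 4550, 9439 and 16415 FPKM in Ctrl replicates 1 to 3. Within cKO it was high in replicates 1 and 2, where Fos was low, whereas within Ctrl its order was that of Fos. Comparing read counts over all genes, the chi-square divided by its degrees of freedom was 19.5 between cKO replicates 1 and 2 and 26.8 between cKO replicates 3 and 4, beside 50.9 to 73.5 across these pairs. The Ctrl libraries did not divide in this way. Against cKO replicates 1 and 2 it was 36.8 and 49.0 for Ctrl replicate 1, low for Fos, and 40.9 and 46.8 for Ctrl replicate 3, high for Fos. Against cKO replicates 3 and 4 it was 66.9 and 58.5 for Ctrl replicate 1, and 71.4 and 61.6 for Ctrl replicate 3. The library sizes behind the deposited values were 1.08, 1.10, 0.991 and 0.891 times the read totals in cKO replicates 1 to 4. In Ctrl replicates 1 to 3 they were 0.987, 0.992 and 1.03 times. A larger ratio lowers the FPKM of every gene. Within cKO the ratio was high in replicates 1 and 2, where Fos was low, and lowest in replicate 4, where Fos was highest. Within Ctrl the ratio and Fos rose together. The part of these measures in the result was not tested, and the time from dissection to lysis is not given in the sources used here.

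Of 33 further immediate early genes, 28 were tested, 0 passed in limma in either direction, and 2 lay under an unadjusted p of 0.05. These 2 were 7.14% of those tested, beside 8.97% of all genes tested. Their median log2 difference was -0.19, with 8 above 0 and 20 below. The 3 with the smallest p were Gadd45a, a stress-response growth regulator, at 20.9 ± 2.55 FPKM in cKO (SD, n = 4) and 29.6 ± 5.32 FPKM in Ctrl (SD, n = 3), the nuclear protein gene Csrnp1 at 1.40 ± 0.443 and 2.15 ± 0.455 FPKM in cKO and Ctrl, and the cytokine signalling inhibitor Socs3 at 12.5 ± 3.08 and 19.3 ± 7.51 FPKM in cKO and Ctrl. Their adjusted p lay between 0.511 and 0.613. Some genes that are often induced together with Fos were at very low levels. Nr4a1, an orphan nuclear receptor, lay between 0.0603 and 0.299 FPKM in cKO and between 0.112 and 0.295 FPKM in Ctrl, Egr2 between 0.0303 and 0.0991 FPKM in cKO and between 0.0068 and 0.125 FPKM in Ctrl, and Ccn2 was listed at 0 in all 7 libraries. These 3 genes were named after their values were seen.

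Of the same 28 genes, 6 were among the 1% of genes (130) most like Fos over the libraries: Sgk1 (rank 6), Plk3 (14), Rhob (24), Btg2 (83), Trib1 (104) and Klf2 (123). Sgk1, a kinase induced by serum and glucocorticoids that regulates sodium transport, stood at 37.6, 29.5, 115 and 169 FPKM in cKO replicates 1 to 4 and at 27.3, 114 and 153 FPKM in Ctrl replicates 1 to 3. Its 3 lowest libraries were those of Fos. Rhob, an endosomal GTPase, stood at 32.8, 26.4, 61.2 and 98.1 FPKM in cKO replicates 1 to 4 and at 31.4, 42.9 and 49.7 FPKM in Ctrl replicates 1 to 3. Plk3, a stress-responsive kinase, stood at 3.46, 3.25, 8.23 and 8.67 FPKM in cKO replicates 1 to 4 and at 3.60, 8.93 and 7.31 FPKM in Ctrl replicates 1 to 3. Both had the same 3 lowest libraries too. These genes were named for this likeness after their values were seen.

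**Figure D4:**
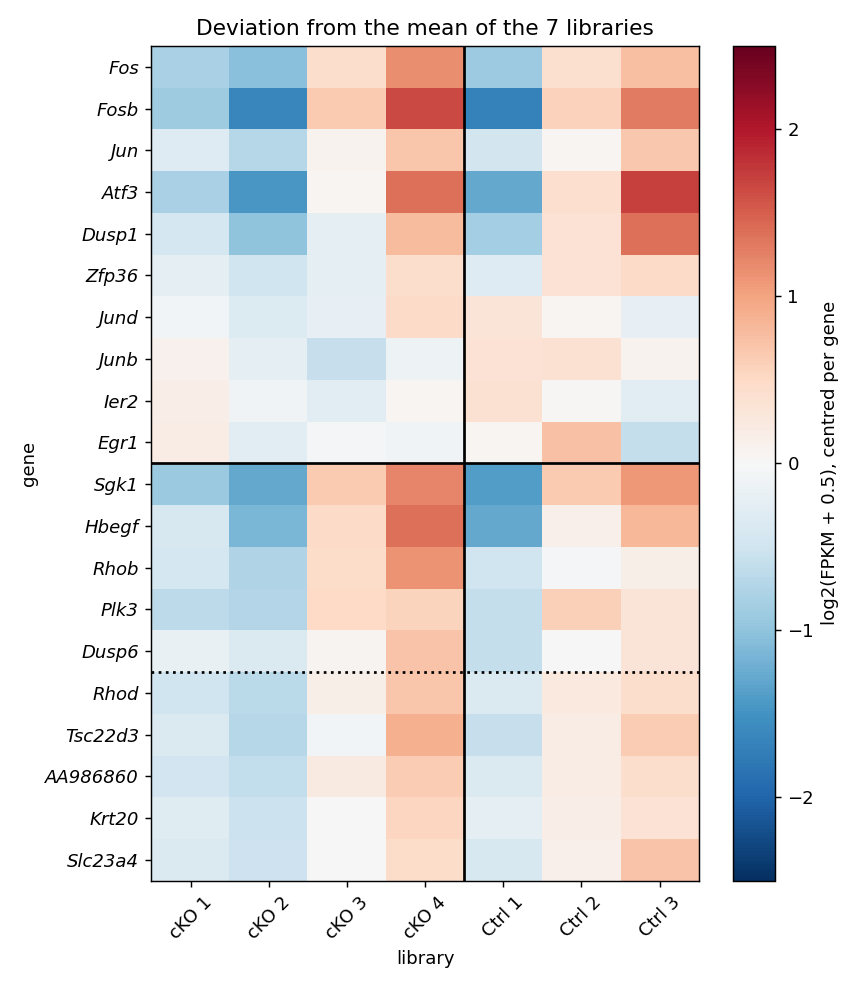
Deviation of each gene from its own mean over the 7 libraries on log2(FPKM + 0.5) (colour; red above, blue below), with cKO libraries left and Ctrl libraries right of the vertical line; the 10 members are above the solid line, 5 companions with a pattern like Fos below it, and the 5 genes closest to the mean of the members below the dotted line. The upper 6 members and all companions are blue in cKO 1, cKO 2 and Ctrl 1, and Jund, Junb, Ier2 and Egr1 are not blue in all 3. The genes below the solid line were chosen for their pattern, so their likeness comes with the choice.

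Among further AP-1 subunits, 7 of 9 genes were tested, 0 passed in limma and 1, Atf2, lay under an unadjusted p of 0.05. The share was 14.3%, beside 8.97% of all genes tested. The 3 with the smallest p were the ATF proteins Atf2, at 3.68 ± 0.184 FPKM in cKO (SD, n = 4) and 2.93 ± 0.419 FPKM in Ctrl (SD, n = 3), Atf4 at 103 ± 16.7 and 126 ± 9.12 FPKM in cKO and Ctrl, and Atf7 at 3.74 ± 0.564 and 3.26 ± 0.415 FPKM in cKO and Ctrl. The ranges of cKO and Ctrl were separate for 1 of the 7, Atf2, beside 10.1% of all genes tested, and its limma adjusted p was 0.552. Fosl2, the most abundant other Fos protein gene, lay between 21.1 and 31.8 FPKM in cKO and between 20.7 and 34.2 FPKM in Ctrl. Fosl1 was listed at 0 in all but cKO replicate 4, at 0.0421 FPKM.

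No kinase or factor listed as leading to these promoters passed. Of 19 genes of the ERK, SRF and CREB route, 19 were tested, 0 passed in limma and 4 lay under an unadjusted p of 0.05, or 21.1% beside 8.97% of all genes. The median log2 difference was 0.12, with 14 above 0 and 5 below. Rps6ka3, the kinase RSK2, stood at 7.46 ± 0.439 FPKM in cKO (SD, n = 4) and 5.79 ± 0.0817 FPKM in Ctrl (SD, n = 3), and the ERK pathway kinase Braf at 1.79 ± 0.227 and 1.18 ± 0.0655 FPKM in cKO and Ctrl. The ranges of cKO and Ctrl were separate for 5 of the 19 genes, these included, beside 10.1% of all genes tested, and the limma adjusted p was 0.511 for each of Rps6ka3 and Braf. The median residual SD of this list was 0.15, beside 0.52 for the 10 members. Some of its low-level genes varied more, such as the SRF partner gene Elk3, which lay between 0.280 and 0.691 FPKM in cKO and between 0.353 and 1.21 FPKM in Ctrl.

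Of 14 genes of the JNK and p38 route, 13 were tested, 0 passed in limma and 1 lay under an unadjusted p of 0.05. The share was 7.69%, beside 8.97% of all genes tested. Map3k7, the kinase TAK1, stood at 7.76 ± 1.16 FPKM in cKO (SD, n = 4) and 6.14 ± 0.367 FPKM in Ctrl (SD, n = 3), Map2k4 at 21.1 ± 4.11 and 16.2 ± 1.66 FPKM in cKO and Ctrl, and Map2k7 at 6.86 ± 1.07 and 8.63 ± 1.08 FPKM in cKO and Ctrl. Both Map2k genes encode JNK-activating kinases. The median log2 difference was 0.025.

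Of 9 further MAP kinase phosphatases, 9 were tested, 0 passed in limma and 0 lay under an unadjusted p of 0.05, beside 8.97% of all genes. Dusp2 stood at 0.640 ± 0.340 FPKM in cKO (SD, n = 4) and 0.917 ± 0.394 FPKM in Ctrl (SD, n = 3), Dusp8 at 2.77 ± 1.32 and 2.03 ± 0.663 FPKM in cKO and Ctrl, and Dusp4 at 2.80 ± 0.649 and 2.45 ± 0.325 FPKM in cKO and Ctrl. Dusp6, the ERK phosphatase, ranked 71 in likeness to Fos and Dusp8 ranked 106. Dusp6 stood at 21.9, 19.3, 26.2 and 41.0 FPKM in cKO replicates 1 to 4 and at 16.4, 25.2 and 31.2 FPKM in Ctrl replicates 1 to 3, again lowest in cKO 1, cKO 2 and Ctrl 1.

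Of 9 genes that bind or degrade AU-rich mRNAs beside Zfp36, 9 were tested, 0 passed in limma and 2 lay under an unadjusted p of 0.05. The share was 22.2%, beside 8.97% of all genes tested. Khsrp, which promotes decay of such mRNAs, stood at 18.2 ± 2.98 FPKM in cKO (SD, n = 4) and 25.3 ± 1.78 FPKM in Ctrl (SD, n = 3), the deadenylase gene Cnot7 at 6.55 ± 0.810 and 5.25 ± 0.305 FPKM in cKO and Ctrl, and the stabilising factor Elavl1 at 10.5 ± 0.840 and 11.9 ± 0.313 FPKM in cKO and Ctrl. The ranges of cKO and Ctrl were separate for these 3 of the 9 genes, beside 10.1% of all genes tested, and their limma adjusted p lay between 0.511 and 0.631.

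Of 15 genes known as AP-1 targets in other settings, 8 were tested, 0 passed in limma and 1 lay under an unadjusted p of 0.05. The share was 12.5%, beside 8.97% of all genes tested. Vegfa, the vascular growth factor, stood at 17.4 ± 2.22 FPKM in cKO (SD, n = 4) and 26.5 ± 7.77 FPKM in Ctrl (SD, n = 3), the hyaluronan receptor Cd44 at 3.29 ± 0.520 and 2.79 ± 0.538 FPKM in cKO and Ctrl, and the EGF receptor ligand Areg at 8.12 ± 3.21 and 6.28 ± 0.634 FPKM in cKO and Ctrl. Hbegf, another EGF receptor ligand, ranked 4 in likeness to Fos. It stood at 5.95, 3.32, 11.3 and 21.4 FPKM in cKO replicates 1 to 4 and at 2.99, 8.78 and 14.5 FPKM in Ctrl replicates 1 to 3.

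Of 13 heat shock genes, a class that also reacts to handling, 12 were tested, 0 passed in limma and 2 lay under an unadjusted p of 0.05. The share was 16.7%, beside 8.97% of all genes tested. The chaperone gene Hspa4l stood at 3.38 ± 0.527 FPKM in cKO (SD, n = 4) and 2.34 ± 0.534 FPKM in Ctrl (SD, n = 3), Hsp90aa1, the inducible HSP90, at 98.7 ± 7.57 and 80.1 ± 8.98 FPKM in cKO and Ctrl, and the mitochondrial chaperonin gene Hspe1 at 109.9 ± 14.4 and 138 ± 24.4 FPKM in cKO and Ctrl. The inducible Hspa1b stood at 2.64, 1.98, 15.3 and 5.04 FPKM in cKO replicates 1 to 4 and at 3.06, 7.61 and 6.79 FPKM in Ctrl replicates 1 to 3. Its 3 lowest libraries were those of Fos, but its highest was cKO replicate 3.

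The 5 genes closest to the mean pattern of the 10 members were Rhod, Tsc22d3, AA986860, Krt20 and Slc23a4, with root mean square differences between 0.12 and 0.15 log2 units over the 7 libraries. Krt20, a keratin of differentiated gut epithelium, stood at 869, 738, 1089 and 1569 FPKM in cKO replicates 1 to 4 and at 920.2, 1209 and 1376 FPKM in Ctrl replicates 1 to 3. Tsc22d3, which encodes the glucocorticoid-induced leucine zipper protein, stood at 20.4, 16.1, 25.3 and 49.5 FPKM in cKO replicates 1 to 4 and at 17.7, 30.3 and 41.6 FPKM in Ctrl replicates 1 to 3. The endosomal GTPase gene Rhod lay between 9.45 and 25.1 FPKM in cKO and between 11.9 and 21.0 FPKM in Ctrl. For each of the 5 genes the 3 lowest libraries were cKO replicates 1 and 2 and Ctrl replicate 1. The mean pattern they were picked by is lowest in the same 3 libraries, so this comes with the choice and is no separate result.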

How the data were processed

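The deposited table gives FPKM values per gene and library, made by the authors from reads aligned with HISAT2, per the submitters' processing notes (version not stated there). The counting tool, its use of strand and the gene annotation were also not stated in these sources. Positions are those of the table, whose chromosome accessions are of GRCm39. Multiplied by gene length, 100% of a library's values came out as whole numbers of reads (tolerance 0.01), so the reads behind each value are known. Values were compared as log2(FPKM + 0.5), a scale that understates changes of low genes, for 13057 genes averaging 0.5 FPKM or more, with limma (3.58.1, R 4.3.3; lmFit, eBayes with trend, 2-sided, Benjamini-Hochberg over all genes tested, threshold 0.05), without covariates. The method was tested on simulated counts with the same added spread for every gene and independent libraries. That setting lacks the wide, shared swings of several members, so it does not bear on them. Single values were compared by exact permutation. The labels do not tie each library to its own mouse, so the p-values rest on library-to-library spread, which may be technical, and counting intervals cover counting error only. Replicates carry the numbers of the sample titles; the table's columns were matched through the sample descriptions, which number them otherwise. Genes named besides the members are Stk24, in each pathway list the 3 with the smallest p, and the 5 closest to the mean pattern of the members with a mean of at least 1 FPKM and no predicted name; every other gene named was chosen after its values were seen. One result that this rule covers is not reported here. The members and lists were chosen with earlier results of these data known, as were the motifs and the comparison of patterns with Fos. Alternatives were other pseudocounts, filters, scalings, variance models, voom on recovered reads, a replicate block and leaving out each library.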

Additional observations from a re-analysis of the deposited data

Results flagged for a closer look

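In 40 genes checked for a cKO library far from the other 3, where chance alone flags about 1 in 20, 2 were found and neither was a member. Socs3 stood at 7.92 FPKM in cKO replicate 4 and between 13.8 and 14.2 FPKM in the other cKO libraries. Hspe1 stood at 131 FPKM in cKO replicate 1 and between 102 and 103 FPKM in the others.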

How the results depend on the processing

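No member passed an adjusted p of 0.05 in any of the 19 alternatives run in limma. The number of all genes called, 4, was 1 with a pseudocount of 0.1, with no filter and with a minimum mean of 1 FPKM. Without cKO replicate 1 it was 7, without Ctrl replicate 1 it was 2, and leaving out any other single library gave 1. The median over the members stayed below 0, between -0.50 and -0.052 when 1 library was left out and at -0.45 with array weights. Small differences changed sign: Ier2 stood at 0.011 after rescaling to a common sum and 0.016 after quantile normalization, Jund at 0.031 after quantile normalization and Fosb at 0.013 in voom. When 1 library was left out, the log2 difference lay between -0.63 and 0.20 for Fos, -0.99 and 0.51 for Fosb, -0.42 and 0.15 for Jun, -1.28 and 0.21 for Atf3, -1.08 and 0.035 for Dusp1, -0.44 and 0.22 for Egr1, -0.27 and 0.034 for Jund, -0.24 and 0.093 for Ier2, -0.56 and -0.15 for Zfp36, and -0.59 and -0.36 for Junb; the cause was not tested. No sign was seen that the replicate numbers of the titles pair the samples. Same-numbered libraries deviated together with correlations over genes of 0.12, -0.087 and -0.13, and not every library deviated most like its own number. The sample descriptions number the libraries otherwise, and correlations between so few libraries cannot exclude a pairing. With the number as a replicate block, a fit in which cKO replicate 4 has no partner and adds nothing, 0 genes passed (1052 at an unadjusted p under 0.05) and Stk24 had an adjusted p of 0.137. With 4 against 3 libraries, only differences larger than this spread could be called.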

Other observations

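Beyond the lists, the genes closest to Fos over the 7 libraries, chosen after their values were seen, were Rasgef1b, Pfkfb3 and Tfcp2l1, with ranks 1, 2 and 3, followed by Pck1 at rank 5. Rasgef1b, an exchange factor for Ras-family GTPases, stood at 7.42, 6.99, 17.3 and 25.9 FPKM in cKO replicates 1 to 4 and at 5.73, 16.2 and 18.5 FPKM in Ctrl replicates 1 to 3. Pfkfb3, which makes the glycolytic activator fructose 2,6-bisphosphate, stood at 9.05, 4.56, 16.9 and 24.4 FPKM in cKO replicates 1 to 4 and at 7.17, 16.5 and 21.9 FPKM in Ctrl replicates 1 to 3. Pck1, an enzyme of gluconeogenesis, stood at 64.9, 84.4, 215 and 261 FPKM in cKO replicates 1 to 4 and at 66.3, 206 and 176 FPKM in Ctrl replicates 1 to 3. Each was lowest in cKO replicates 1 and 2 and Ctrl replicate 1, which comes with their choice by likeness to Fos, and none passed in limma (adjusted p between 0.920 and 0.996 for these 4 genes).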
